A study of Helianthus annuus with 15 samples.

Results

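The genes described here were high in both the leaf and the axil of sunflower (Helianthus annuus) and lower in root, stem and flower. Each of the 5 tissues gave 3 libraries of sequenced messenger RNA, 15 in total, under a study title that concerns TCP transcription factors and shoot branching. The labels give the tissue of each sample and no age, line, treatment or harvest method, and leave it unsaid whether libraries of 1 tissue are from different plants, so a p-value here reflects spread among libraries that may be technical. Levels are in FPKM, fragments scaled by gene length and library size. Differences were taken as log2(FPKM + 1), a scale on which changes of low genes come out too small. A member had to have tissue means of log2(FPKM + 1) in leaf and in axil that each exceeded root, stem and flower by at least 1 and differed from each other by under 1, with every leaf and axil library above every library of the other 3 tissues. Of 57688 chromosomal identifiers, 125 met this rule, fewer than the limit of 300 at which the list would have been cut.

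Leaves carry out most of a plant's photosynthesis and carry an epidermis that limits water loss and meets pathogens and herbivores. The axil is where the leaf stalk meets the stem, and a small group of dividing cells, the axillary meristem, can there form a bud and then a side shoot. Young leaves form around that meristem, and the base of the parent leaf adjoins it. The labels do not tell how much adjoining leaf or stem tissue an axil sample held. In such bulk samples, fewer cells of a type and less RNA per cell cannot be told apart. The table does not pair the member identifiers with gene names or products, so the members are described by identifier, level, length and chromosome, and the tissue labels were not checked against marker genes.

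Each library held between 12086725 and 14728596 recovered reads. For a 1000-nt gene, 3 reads amount to between 0.204 and 0.248 FPKM, depending on the library. All 125 members passed the filter of 1 FPKM in at least 3 libraries, which they did through the leaf and axil libraries that the rule required to be high. Because the rule used all 15 libraries, the height of leaf and axil over the other tissues, the similarity of leaf and axil, and the counts that follow from them are descriptions and carry no test. The order of root, stem and flower among themselves, the order of the libraries within a tissue, gene length and position were not set by the rule.

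The rule can be followed in steps. Leaf and axil each exceeded the other 3 tissues by the margin of 1 in 242 chromosomal genes, differed by under 1 in 170 of these, and did so without overlap between libraries in 125. The same rule applied to other pairs of tissues was met by 165 genes for leaf and flower, 106 for stem and axil and 189 for root and axil. Root and leaf gave 99, stem and leaf 76, and flower and axil 54, the fewest of any pair. Of the pairs without leaf and axil, stem and flower gave 588, the most of any pair, root and stem 117 and root and flower 76.

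Members spanned a wide range of levels. The mean in leaf ran from 1.19 to 1366 FPKM with a median of 16.8, and the mean in axil from 1.32 to 1636 FPKM with a median of 16.2. Over all 34586 genes tested, the median of the tissue mean was 4.61 FPKM in leaf and 5.32 in axil. Both means reached 10 FPKM in 77 members, 50 FPKM in 17 and 100 FPKM in 6, and both reached 2 FPKM in 117. In the low tissues the median of the members' means was 1.36 FPKM in root, 1.97 in stem and 1.60 in flower. Many members were reduced but still detected there: a mean of at least 1 FPKM remained in 84 members in stem, 72 in flower and 70 in root.

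**Figure D1:**
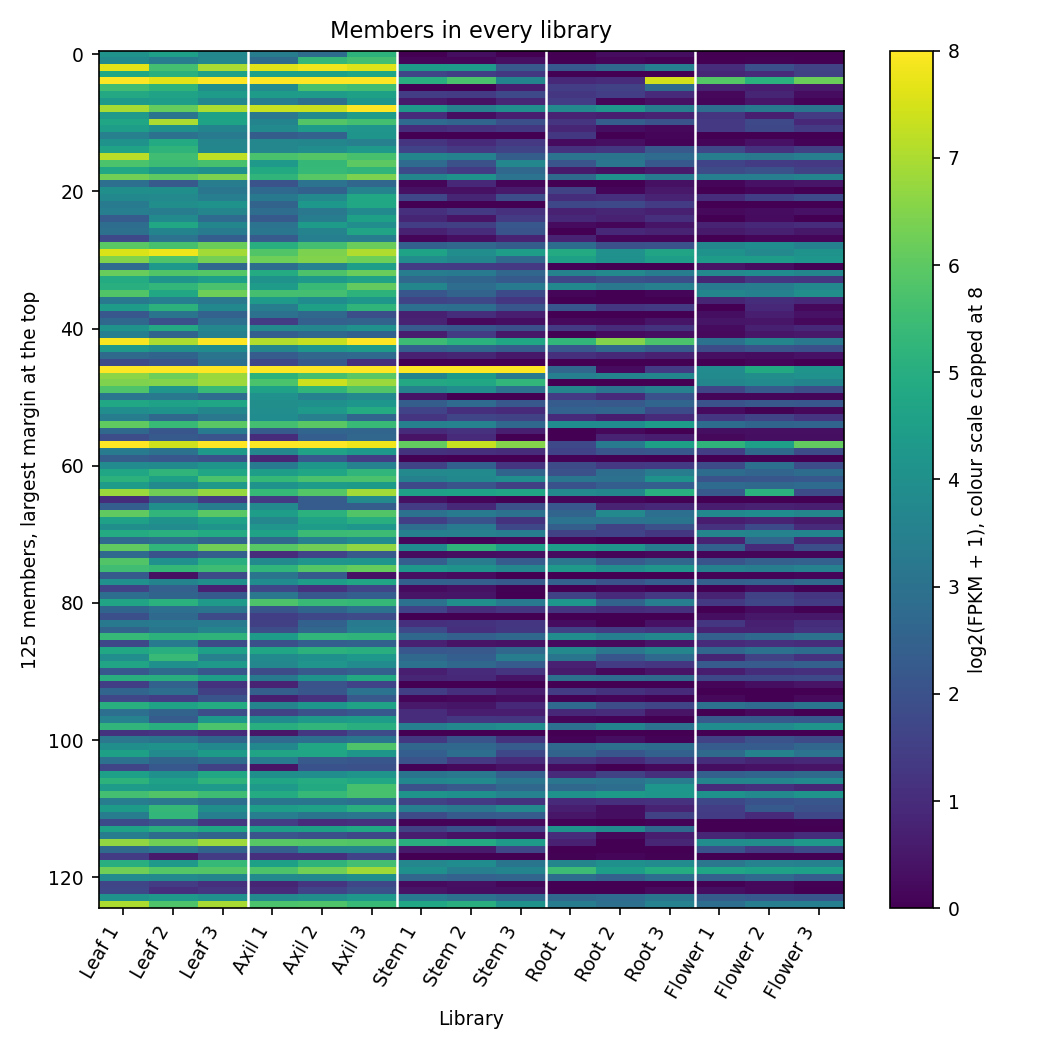
Each row is 1 of the 125 members and each column 1 of the 15 libraries, ordered by tissue; colour gives log2(FPKM + 1), capped at 8, and rows run from the largest margin at the top to the smallest at the bottom. The 6 leaf and axil columns on the left are brighter than the 9 others, as the rule required, except where values reach the cap, as stem does for the most abundant member. Several rows keep a visible level in stem, root or flower.

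The margin is the lower of the leaf and axil means minus the highest mean among root, stem and flower. It ran from 1.01 to 3.60 with a median of 1.43, reached 2 in 27 members and 3 in 4. The tissue next below leaf and axil was stem for 60 members, root for 35 and flower for 30. The lowest of the 6 leaf and axil libraries was at least 2 times the highest of the 9 others in 58 members and at least 5 times in 8. At the edge of the rule, HannXRQ_Chr07g0203741 on chromosome 7 entered with a margin of 1.01 at 101 ± 40.8 FPKM in leaf, 49.5 ± 7.13 in axil and 24.9 ± 7.92 in stem (SD, n = 3). HannXRQ_Chr11g0351491 on chromosome 11 also entered with a margin of 1.01, at 16.8 ± 1.53 FPKM in leaf, 15.2 ± 2.87 in axil and 7.04 ± 1.44 in stem (SD, n = 3). Just outside stood HannXRQ_Chr15g0478871, with a margin of 0.99 at 3.47 ± 1.33 FPKM in leaf, 3.66 ± 0.735 in axil and 1.18 ± 0.173 in flower (SD, n = 3). HannXRQ_Chr15g0478161 missed with 0.98, at 225 ± 65.2 FPKM in leaf, 176 ± 11.2 in axil and 93.6 ± 38.1 in stem (SD, n = 3).

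A group of 21 members stayed under 1 FPKM in each of the 9 root, stem and flower libraries, and the 2 highest of these also had the largest margins of all members. HannXRQ_Chr01g0006961, a gene model of 338 nt on chromosome 1, was at 16.4, 21.9 and 12.3 FPKM in Leaf 1, 2 and 3, and at 9.38, 6.12 and 35.3 FPKM in Axil 1, 2 and 3. Root held 2 reads over its 3 libraries, stem 1 and flower 0. The 0 reads in flower allow up to 0.214 FPKM, which puts the leaf mean at least 78.9-fold and the axil mean at least 79.1-fold higher. These folds are for means of 3 libraries and are lower for the lowest single libraries. Leaf and axil overlapped, and their means coincided at 16.9 ± 4.81 and 16.9 ± 16.0 FPKM (SD, n = 3), although the axil mean was 7.75 without Axil 3.

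HannXRQ_Chr05g0135381 on chromosome 5, with a gene length of 1928 nt, was at 13.3, 9.38 and 12.0 FPKM in the leaf libraries and at 6.06, 38.9 and 48.2 FPKM in the axil libraries. Axil 1 lay below all 3 leaf libraries, and Axil 2 and Axil 3 lay above them. Outside leaf and axil it reached at most 0.254 FPKM, in Stem 3, and the root mean of 0.0378 FPKM rests on 3 reads and the flower mean of 0.0117 on 1. This member had the widest range among axil libraries of all 125, 2.80 on the log2 scale.

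The most abundant member was HannXRQ_Chr17g0561161 on chromosome 17, with a gene length of 1204 nt. It was at 1222, 735 and 2140 FPKM in the leaf libraries and at 967, 1722 and 2219 FPKM in the axil libraries. Stem still held 528, 279 and 427 FPKM, flower 13.4, 28.3 and 16.8, and root 5.22, 0.171 and 1.61. The tissues other than leaf and axil thus formed 3 steps with no overlap between them, and the gene returns below for that order.

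HannXRQ_Chr13g0416751 on chromosome 13, with a gene length of 932 nt, was the second most abundant. It was at 923, 203 and 775 FPKM in leaf and at 796, 354 and 265 FPKM in axil. Root held 0.888 and 1.03 FPKM in Root 1 and Root 2 but 175 in Root 3, so that the root mean of 58.9 ± 100 FPKM (SD, n = 3) fell to 0.960 without Root 3. Its axil mean of 472 FPKM was 310 without Axil 1. None of the 3 comparisons among root, stem and flower was called for it, with a log2 difference of -2.60 ± 1.35 between root and flower (SE; limma adjusted p = 0.114).

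The 2 members whose values over the 15 libraries correlated best with the mean pattern of all members were HannXRQ_Chr12g0365611 (Pearson r = 0.984) and HannXRQ_Chr02g0035451 (r = 0.976). These correlations are descriptions over libraries that share the 5 tissues, and each member is part of the mean. HannXRQ_Chr12g0365611 on chromosome 12 was at 9.72, 9.20 and 11.5 FPKM in leaf, 6.22, 8.25 and 13.2 in axil, 1.14, 1.58 and 1.18 in stem, 0.651, 0.826 and 0.637 in root and 0.161, 0.197 and 0.299 in flower. HannXRQ_Chr02g0035451 on chromosome 2 was at 27.2, 23.6 and 20.7 FPKM in leaf and at 21.0 ± 1.24 FPKM in axil (SD, n = 3). Its level was 1.94 ± 0.426 FPKM in stem, 1.36 ± 0.393 in root and 0.366 ± 0.347 in flower (SD, n = 3; 0.167 in flower without Flower 2). By mean, stem stood next below leaf and axil in both genes, followed by root and then flower, but stem and root libraries overlapped in the second gene.

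**Figure D2:**
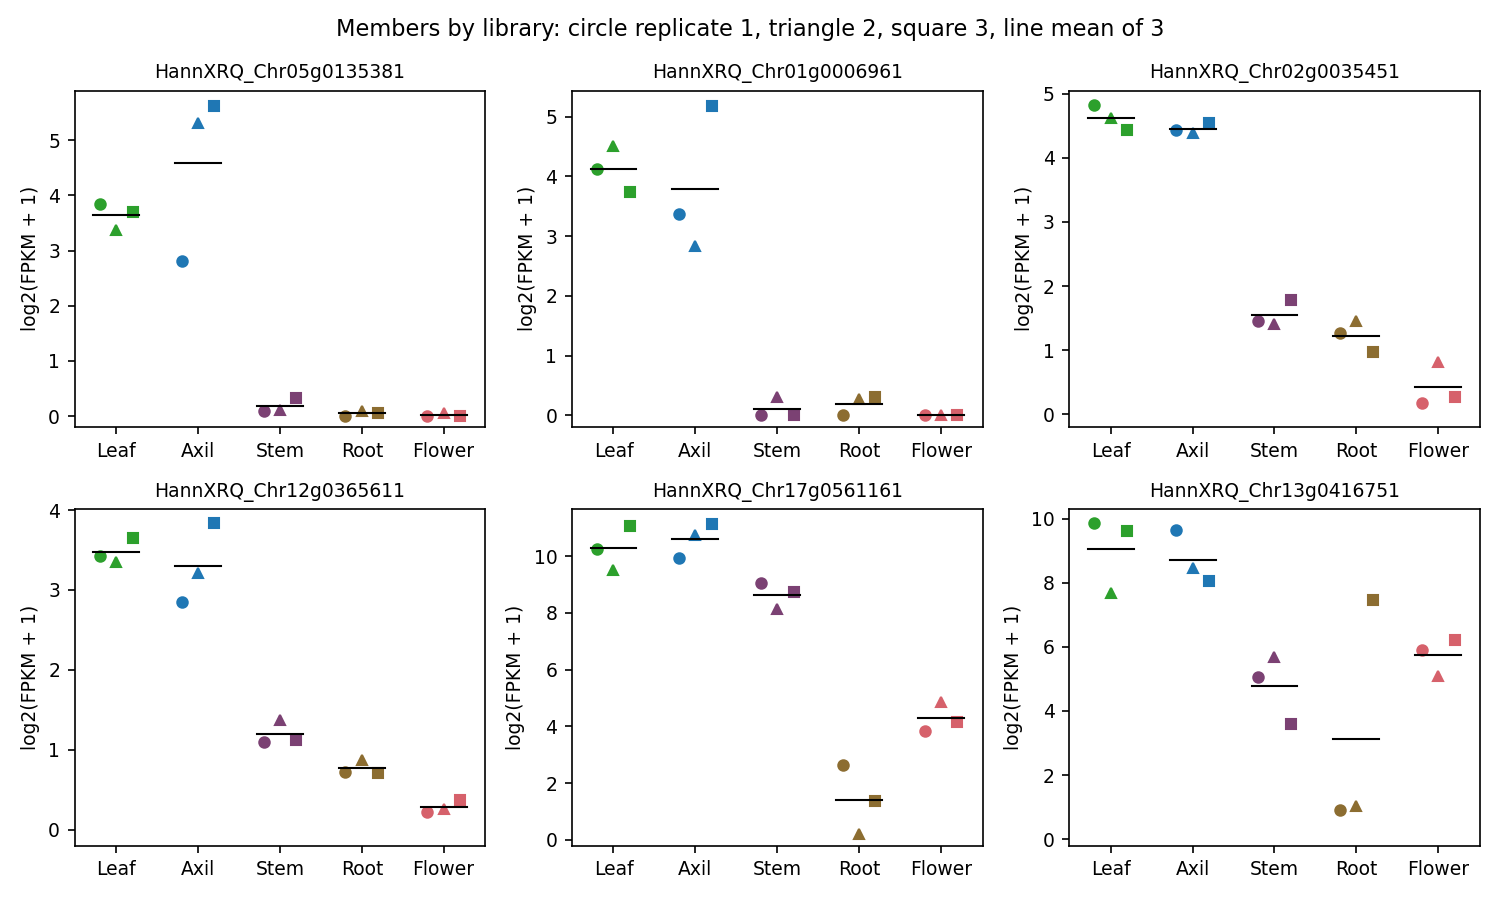
Level of 6 members as log2(FPKM + 1) against tissue; circles, triangles and squares are replicates 1, 2 and 3 and the line is their mean. Every leaf and axil point lies above every other point of its panel; Axil 1 is the low axil point of HannXRQ_Chr05g0135381, and Root 3 is the single high root point of HannXRQ_Chr13g0416751.

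How the members are ordered among root, stem and flower is a comparison the rule left free, although it capped the highest of the 3. It was tested with limma on all 34586 genes, and a gene was called where its adjusted p (Benjamini-Hochberg) lay below 0.05 and its log2 difference reached 1 in size. Stem was higher than flower in 22 members (17.6%), against 8.98% of all genes tested, and lower in 6 members (4.80%), against 8.60%. The median difference of stem minus flower was 0.18 on the log2 scale over the members and 0 over all genes. Where a call required a log2 difference of at least 2, the counts were 4 and 1 (3.20% and 0.800%, against 3.15% and 3.25% of all genes), so that the share with stem above flower was then near the background.

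In the comparisons with root, the members' shares were below those of all genes at these settings. Root was higher than stem in 11 members (8.80%, against 15% of all genes) and lower in 18 (14.4%, against 18.0%). Root was higher than flower in 18 members (14.4%, against 17.5%) and lower in 17 (13.6%, against 20.7%). For root lower than stem and root higher than flower, the side of the background depended on the settings. With a pseudocount of 0.1 the members' shares were 24.0% against 22.6% of all genes and 23.2% against 20.4%. With limma's voom on recovered reads they were 23.2% against 22.3% and 20.8% against 20.2%, and with no filter on low levels 14.4% against 12.3% and 12.8% against 12.5%. No excess or shortfall of members is therefore read from these 2 directions. The other 2 stayed below the background but came close to it with no filter. Root was then higher than stem in 8.80% of members against 10.8% of all genes, and lower than flower in 13.6% against 14.1%. The rule capped the members' levels in these tissues and the background was not matched for level, so no shortfall is read there either. The median differences over the members were -0.14 for root minus stem and 0.02 for root minus flower, and those over all genes were -0.04 and -0.01. In total 50 members (40.0%) were called in at least 1 of the 3 comparisons, against 47.9% of all genes, and 75 in none.

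Each of the 3 tissues was also set against both others at once, with both differences called at the limits above. Flower was called lower than both others in 12 members (9.60%, against 3.56% of all genes) and higher in 4 (3.20%, against 6.90%). Root was called lower than both in 13 (10.4%, against 12.1%) and higher in 7 (5.60%, against 12.4%). Stem was called higher than both in 4 (3.20%, against 4.66%) and lower in 2 (1.60%, against 1.30%). A member without such calls is counted in none of these groups. These shares are given as descriptions of the list beside its background, since the members were chosen on levels in the same libraries.

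**Figure D3:**
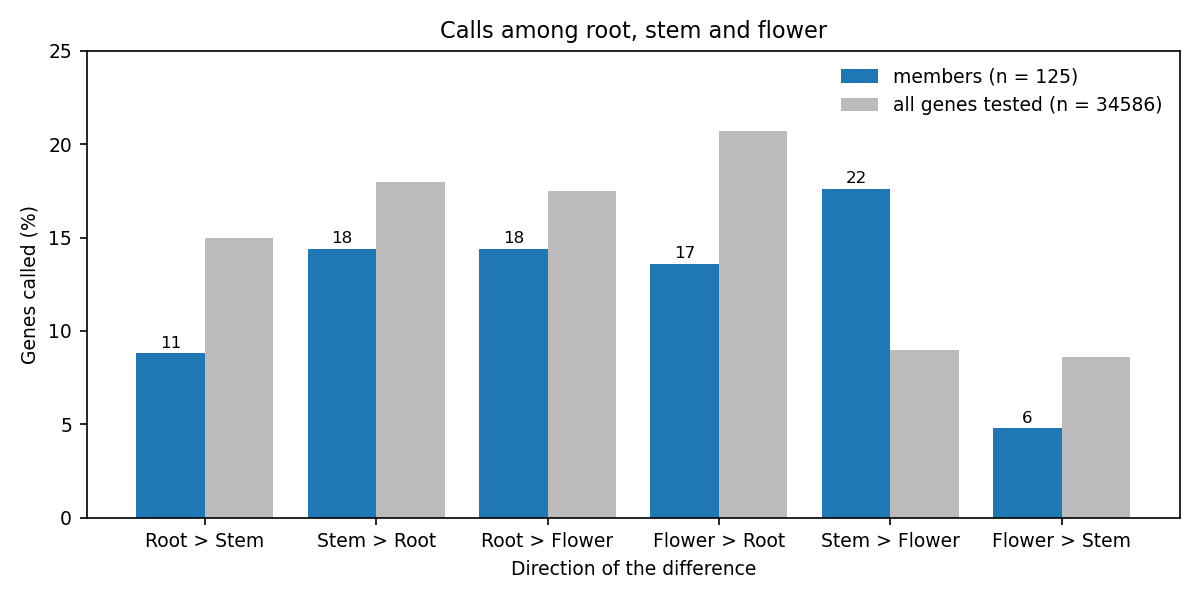
Share of genes called in each direction between root, stem and flower, in percent, for the 125 members (blue, with the number of members above the bar) and for all 34586 genes tested (grey). Stem above flower is the direction where the members' share, 17.6%, exceeds that of all genes, 8.98%; in the other 5 directions the members' share is below that of all genes at these settings, but for root lower than stem and root higher than flower it is above it with a pseudocount of 0.1, with voom and with no filter.

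The differences behind these counts were large for a few members. HannXRQ_Chr17g0561161, the most abundant member, exceeded in stem both flower, by 4.35 ± 0.56 (SE; limma adjusted p = 5.88e-05), and root, by a difference of root minus stem of -7.22 ± 0.56 (SE; limma adjusted p = 2.14e-07). Root averaged 2.34 ± 2.60 FPKM (SD, n = 3), or 0.892 without Root 1. HannXRQ_Chr17g0538041 on chromosome 17 was at 13.8, 35.5 and 21.2 FPKM in stem, 21.5, 16.8 and 9.52 in root and 4.57, 0.998 and 2.83 in flower. Every stem library lay above every flower library, with stem minus flower at 2.71 ± 0.43 (SE; limma adjusted p = 0.000334). Its gene model is only 204 nt long, and its flower level rests on 23 reads.

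In the opposite direction, HannXRQ_Chr15g0473771 on chromosome 15 was at 0.472, 0.363 and 0.908 FPKM in stem and at 7.15, 5.95 and 7.88 in flower. The groups were far apart, at -2.35 ± 0.29 for stem minus flower (SE; limma adjusted p = 4.93e-05). HannXRQ_Chr06g0183331 on chromosome 6 was at 3.39, 4.89 and 2.45 FPKM in stem, 11.7, 10.6 and 14.4 in flower, and 0.0711, 0 and 0.0695 in root. Its difference of stem minus flower was -1.55 ± 0.30 (SE; limma adjusted p = 0.00146) and that of root minus flower -3.65 ± 0.30 (SE; limma adjusted p = 2.53e-07). For this gene the 3 low tissues formed separate steps, with flower above stem and stem above root.

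Some members had 0 reads in a single tissue at this depth. HannXRQ_Chr17g0554211 on chromosome 17, a gene model of 207 nt, had 0 reads in root and 27.3, 26.7 and 38.2 FPKM in stem. The 0 reads allow up to 0.372 FPKM in root, so that the stem mean was at least 82.7-fold and the flower mean at least 31.9-fold higher. HannXRQ_Chr01g0027051 on chromosome 1, of 481 nt, had 0 reads in flower, which allow up to 0.150 FPKM, and 15.8, 13.3 and 5.38 FPKM in root. The root mean was therefore at least 76.5-fold higher than flower, a fold that is lower for Root 3 alone. Root also exceeded stem, at 1.91, 3.04 and 2.03 FPKM, by 1.81 ± 0.29 (SE, limma adjusted p = 0.000154). Over all members, 0 reads in all 3 libraries of a tissue were found for 10 members in root, 7 in stem and 8 in flower. No share of all genes is given beside these counts, and the rule kept members low in these tissues, so no excess is read from them.

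Further members were named for root above stem or for root above flower. HannXRQ_Chr15g0477481 on chromosome 15, a gene model of 5509 nt and the longest of the 125, was at 6.76, 6.0 and 5.74 FPKM in root and at 0.819, 0.901 and 0.355 in stem, a root minus stem difference of 2.10 ± 0.31 (SE; limma adjusted p = 8.49e-05). HannXRQ_Chr12g0362371 on chromosome 12 was at 38.3, 90.2 and 51.9 FPKM in root and at 7.08, 11.6 and 8.22 in flower, a root minus flower difference of 2.55 ± 0.39 (SE; limma adjusted p = 7.65e-05). In neither gene did the compared groups overlap. In stem, HannXRQ_Chr12g0362371 averaged 34.1 FPKM, against 60.1 in root. HannXRQ_Chr01g0027051, described above, had a larger root minus flower difference, 3.53 ± 0.29 (SE, limma adjusted p = 2.53e-07).

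Leaf and axil were compared as a description, because the rule bounded their difference. The mean was higher in leaf for 74 members (59.2%, against 35.5% of all genes tested) and higher in axil for 51, and 86 members differed by under 0.5 on the log2 scale. The median of leaf minus axil was 0.14 over the members and -0.20 over all genes tested. Every leaf library lay above every axil library in 4 members (3.20%, against 14.8% of all genes), and the reverse held in 6 (4.80%, against 32.5%); in 115 members the libraries overlapped. The split between leaf and axil depended on scaling: 66 of 125 were higher in leaf once every library was scaled to an equal sum (52.8%, against 31.04% of all genes), 100 with median-of-ratios scaling (80.0%, against 49.3%) and 86 once quantile-normalized (68.8%, against 44.1%). The shares of members and of all genes thus moved together, and the members' share was the higher under each of these scalings. Without both Leaf 2 and Axil 1, an alternative chosen after seeing the data, 65 members were higher in leaf (52.0%, against 36.8% of all genes). The median of leaf minus axil was then 0.03 over the members and -0.18 over all genes tested.

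**Figure D4:**
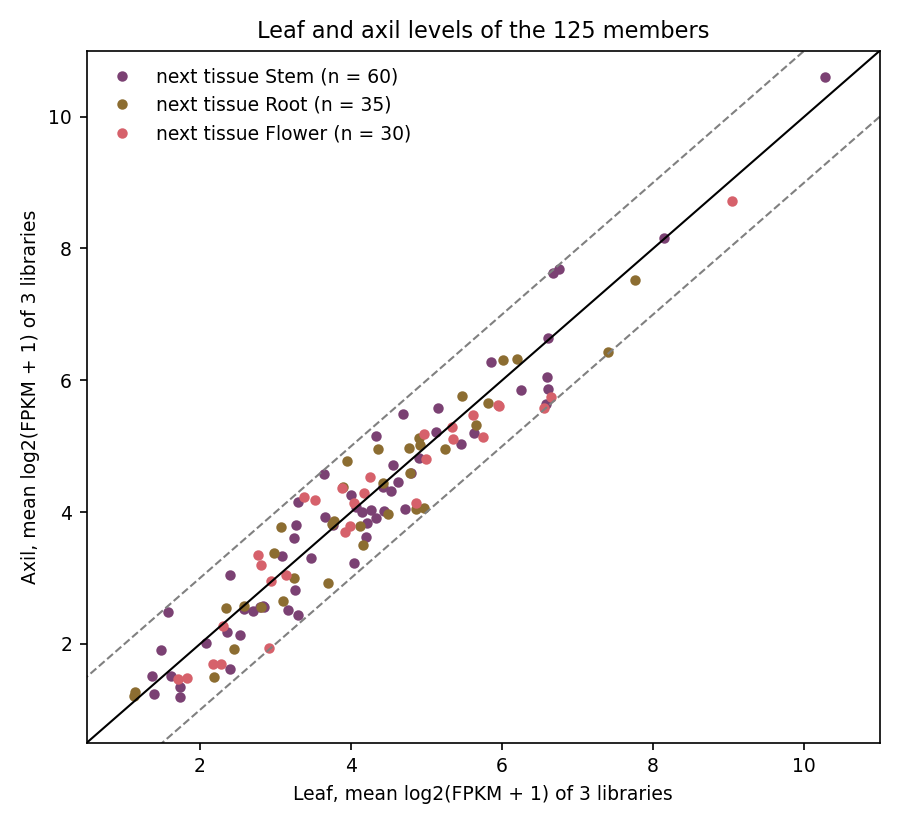
Mean log2(FPKM + 1) of 3 libraries in leaf (horizontal) against axil (vertical) for the 125 members, coloured by the tissue next below; the solid line is equality and the dashed lines mark the difference of 1 that bounded the rule. The members lie along the line over the whole range of levels, and members with stem, root or flower as next tissue are mixed along it.

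Within the axil, the members were ordered by library. The members' median level was 12.4 FPKM in Axil 1, 17.1 in Axil 2 and 19.6 in Axil 3, whereas the median of all genes tested was 5.43, 5.26 and 4.92 FPKM. Axil 1 was the lowest axil library in 92 members (73.6%, against 31.7% of all genes tested), and Axil 3 the highest in 78 (62.4%, against 29.6%). Among 566 genes that were high in axil by the same margin and at least 1 above leaf, Axil 1 was lowest in 55.8% and Axil 3 highest in 50.9%. Among 1131 genes that were high in leaf and at least 1 above axil, the shares were 28.0% and 23.9%. Axil 1 held 12928891 reads, Axil 2 12094426 and Axil 3 12162427. The cause of the order of the axil libraries was not tested. Without Axil 1, 147 genes met the rule, 112 of them members.

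**Figure D5:**
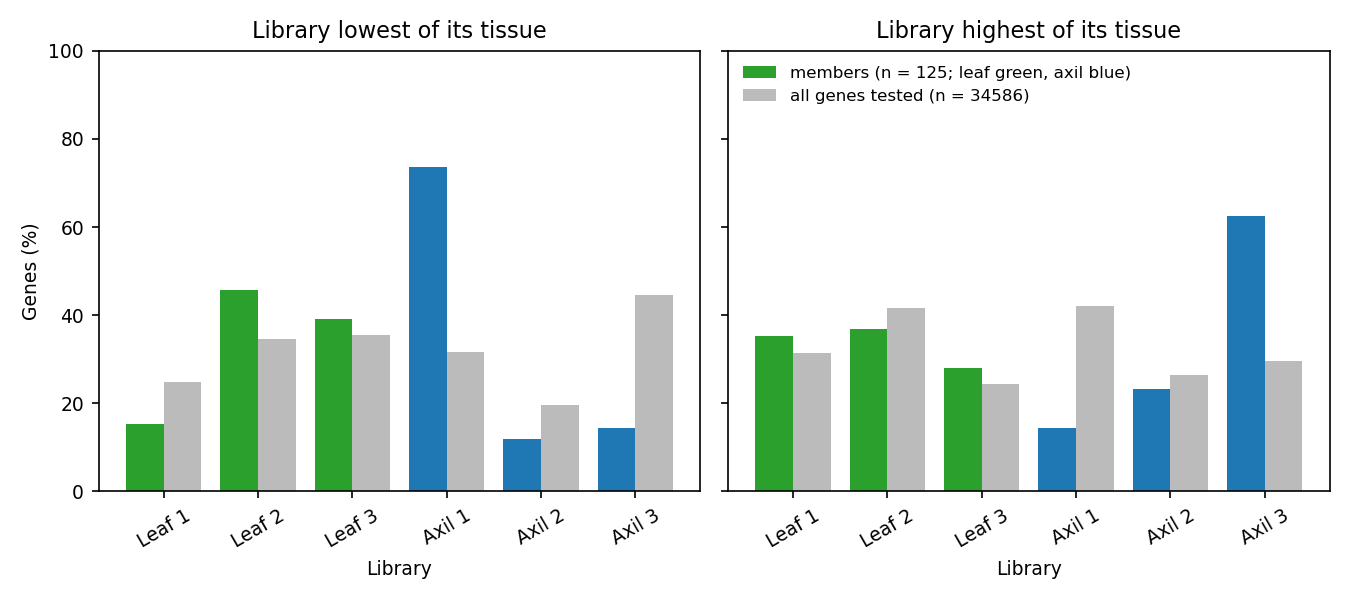
For each leaf and axil library, the share of genes in percent for which it was the lowest (left) or the highest (right) of the 3 libraries of its tissue, for the 125 members (green leaf, blue axil) and for all 34586 genes tested (grey). Axil 1 is lowest for 73.6% of the members and Axil 3 highest for 62.4%, while the leaf bars lie closer to the grey ones.

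The leaf libraries showed a weaker order. Their medians over the members were 16.2, 15.5 and 14.0 FPKM, and Leaf 2 was the highest in 46 members (36.8%, against 41.6% of all genes tested) and the lowest in 57 (45.6%, against 34.5%), between the others in 22. Axil 1 was the lowest axil library in 33 of the 46 (71.7%), 44 of the 57 (77.2%) and 15 of the 22 (68.2%). Over all genes tested with Leaf 2 highest, lowest or between, these shares were 32.8%, 30.3% and 31.8%. The widest range among leaf libraries, 2.35 on the log2 scale, belonged to HannXRQ_Chr08g0233231 on chromosome 8, at 25.6, 127 and 24.1 FPKM in leaf and 11.3, 57.1 and 48.3 in axil. Its leaf mean of 58.9 FPKM was 24.8 without Leaf 2. HannXRQ_Chr06g0183811 on chromosome 6, the member with the second widest axil range (2.69), ran the other way, at 3.82, 0.288 and 2.57 FPKM in leaf and 7.46, 3.80 and 0.310 in axil. Its leaf mean of 2.22 FPKM was 1.43 without Leaf 1, its axil mean of 3.86 was 2.06 without Axil 1, and root held 0 reads.

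Whether genes high in leaf are also high in axil can be read from lists that leave out the tissue in question. Taken on the 12 libraries without axil, 1444 chromosomal genes had leaf above root, stem and flower by at least 1 with no overlap. In axil, 297 of them (20.6%) came within 1 of the leaf mean, 1131 were at least 1 below it and 16 at least 1 above it. Their median of the tissue mean was 4.33 on the log2(FPKM + 1) scale in leaf, 2.22 in axil and 2.12 in the highest of root, stem and flower. Placed between that highest tissue (0%) and leaf (100%), the median gene lay at -0.980% in Axil 1, 0% in Axil 2 and -2.00% in Axil 3. At the median, leaf genes were thus close to the highest low tissue in each axil library, and the 125 members form 8.66% of that list.

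The converse list, taken on the 12 libraries without leaf, held 835 genes with axil above root, stem and flower. In leaf, 227 of them (27.2%) came within 1 of the axil mean, 566 were at least 1 below and 42 at least 1 above. All 125 members are among them, since the rule contains these conditions. Both lists were defined after the members were known and share the root, stem and flower libraries with the rule, so they are given with no test.

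The members lay on all 17 chromosomes named in the identifiers. Chromosome 17 held the most, 13 (10.4% of members, with 6.52% of the chromosomal genes tested), followed by chromosome 13 with 11 and chromosome 3 with 10, and chromosome 16 held the fewest, 4 (3.20%, with 6.31%). Gene lengths implied by the FPKM values ran from 204 to 5509 nt with a median of 1346 nt, and the middle of the range, from the lower to the upper quartile, was 924 to 2014 nt. The 32943 chromosomal genes tested had a median of 1575 nt and quartiles of 988 and 2373 nt.

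Some members were next to each other in the numbering of identifiers. Of the 250 identifiers that flank a member in the numbering, 6 were themselves members, which form 3 adjacent pairs. Of the 159 flanking identifiers that were tested, 9 (5.66%) had leaf and axil above the other tissues by the margin, against 0.735% of the chromosomal genes tested. The 9 include the 6 members of the adjacent pairs, which meet the margin by the rule. The pairs were singled out after their values were seen. On chromosome 11, HannXRQ_Chr11g0332651 was at 19.3, 20.8 and 11.9 FPKM in leaf and 9.19, 6.73 and 17.7 in axil, and HannXRQ_Chr11g0332661 at 14.8, 14.7 and 7.75 in leaf and 5.70, 4.56 and 10.9 in axil. Over the 15 libraries the values of this pair correlated at r = 0.995, and they shared the same single high root library, Root 1, at 1.73 and 1.94 FPKM.

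On chromosome 12, HannXRQ_Chr12g0370791 was at 26.0, 17.7 and 15.2 FPKM in leaf and 27.9, 40.2 and 36.7 in axil, and its neighbour HannXRQ_Chr12g0370801 at 21.5, 15.2 and 11.1 in leaf and 13.2, 20.5 and 16.9 in axil (r = 0.972). The first of these was higher in axil on average and the second about level. On chromosome 17, HannXRQ_Chr17g0560501 and HannXRQ_Chr17g0560511 were low, at 1.65 ± 0.518 and 1.62 ± 0.612 FPKM in leaf and 1.45 ± 0.765 and 1.96 ± 1.01 in axil (SD, n = 3; r = 0.969). The correlations are descriptions over 15 libraries that share 5 tissues. Whether members of a pair are near-identical copies between which the authors' counting could split reads was not tested, so their separate levels are uncertain.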

How the data were processed

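Libraries were made from mRNA captured on oligo(dT) beads, fragmented and ligated to adaptors with molecular identifiers, per the labels' protocols. The deposited values are FPKM per library, computed by the authors, with their means per tissue, which were not used. Among tools, the submitters' processing notes list HTSeq 0.6.1. Not given in the sources used here are the aligner, the build, the annotation, and whether molecular identifiers or strand were used in counting. Of 63411 identifiers, 0 matched the reference table of assembly HanXRQr2.0-SUNRISE, so gene lists that need product names gave no genes. A further 15 unnamed columns of values were not used.

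Whole reads, library totals and gene lengths were solved from the steps between FPKM values: a value counted as whole within 1e-06 reads, and implied lengths were whole within 0.05 nt for 100% of 31040 genes. Limits at 0 reads use 3 reads over the 3 libraries of a tissue and cover counting error only.

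The fit took the 34586 genes that reached 1 FPKM in 3 or more libraries as log2(FPKM + 1), with limma 3.58.1 (eBayes with trend, all 15 libraries) in R 4.3.3, and tested on simulated data first. The remaining steps ran in pandas 2.3.3, numpy 2.4.6 and matplotlib 3.10.9 under Python 3.11.15. Members, lists and named genes were chosen with earlier results of these data known. Named members were the first 2 by margin, level, level among those under 1 FPKM elsewhere, difference in each tested direction, likeness to the mean pattern, and range in leaf and in axil, and the 2 on each side of the margin. Alternatives covered pseudocount, filter, scaling, variance model, replicate block, libraries in the fit, call threshold, the rule's own limits and leaving out each library.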

Additional observations from a re-analysis of the deposited data

How the results depend on the processing

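Counts were recomputed 192 times, and 171 of these differed from the reported count by no more than 1.5 times. The number of genes meeting the rule was 61 with a pseudocount of 5 and 27 with a margin of 2, and it ran from 115 to 153 when each library was left out (147 without Axil 1, 153 without Leaf 2). Without both Leaf 2 and Axil 1, an alternative chosen after seeing the data, 179 genes met the rule and 100 of them were members. Counts in the order higher in root than stem, lower in root than stem, higher in root than flower, lower in root than flower, higher in stem than flower and lower in stem than flower are given next, where they moved. With a pseudocount of 5 they were 2, 7, 7, 6, 8 and 2, or 1.60, 5.60, 5.60, 4.80, 6.40 and 1.60% of members, against 7.89, 9.49, 9.69, 11.5, 4.61 and 4.68% of all genes. Requiring a log2 difference of 2 gave 1, 6, 6, 7, 4 and 1, against 6.75, 7.79, 8.41, 9.69, 3.15 and 3.25% of all genes. With a pseudocount of 0.1 there were 30 lower in root than stem (24.0%, against 22.6% of all genes), 29 higher and 28 lower in root than flower (23.2% against 20.4%, 22.4% against 25.3%), and 11 lower in stem than flower (8.80% against 10%). With adjusted p alone the last was 11 (8.80% against 15.1%). With limma's voom on recovered reads, chosen after seeing the data, 29 were lower in root than stem (23.2% against 22.3%) and 27 lower in root than flower (21.6% against 25.2%). The thresholds act by construction; the cause of the other shifts was not tested. In the same order, leaving out each library gave 10 to 13, 18 to 21, 15 to 20, 15 to 17, 18 to 23 and 4 to 7 members. As shares of members these were 8 to 10.4, 14.4 to 16.8, 12 to 16, 12 to 13.6, 14.4 to 18.4 and 3.2 to 5.6%. The shares of all genes were 14.1 to 15.6, 16.9 to 18.3, 16.9 to 17.6, 19.6 to 21.2, 7.86 to 9.71 and 7.98 to 9.04%.

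Members higher in stem than flower outnumbered those lower under every alternative run. Over all genes the main shares were 8.98% and 8.60%. With a difference of 2 required, the members' 3.2% higher in stem was near the 3.15% of all genes. Named differences were picked for size, and some settings cannot undo a call. That 333 of 336 recomputed kept theirs and 0 changed sign is no test. Calls were lost for HannXRQ_Chr15g0477481 with a pseudocount of 5 (0.97) and, with 2 required, for HannXRQ_Chr01g0027051 in root against stem (1.81) and HannXRQ_Chr06g0183331 in stem against flower (-1.55). With libraries scaled to equal sums, the all-gene median shifted for root minus stem from -0.04 to 0.09 and for root minus flower from -0.01 to 0.11. Median-of-ratios scaling moved the members' median of leaf minus axil from 0.14 to 0.43 and that of all genes from -0.20 to 0. The replicate numbers were not taken as pairing: between libraries with the same number, deviations from the tissue means had a median correlation of -0.0334 (30 pairs), and for 1 library of 15 the best match carried its number. With a replicate block 17 members were higher in root than in flower (13.6%, against 17.5% of all genes) and the other 5 counts were the same. In the order above, the shares of all genes for those 5 were 14.9, 17.8, 20.6, 8.78 and 8.46%. Levels under about 0.248 FPKM on a gene of 1000 nt rest on 3 reads or fewer, which limits what can be said of members near 0.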
